A study of Mus musculus with 9 samples.

Results

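The genes described here write, copy or remove DNA methylation: the methyltransferase genes Dnmt1, Dnmt3a and Dnmt3b, their partners Dnmt3l and Uhrf1, the dioxygenase genes Tet1, Tet2 and Tet3, and the glycosylase gene Tdg. They were taken by name from a table of read counts with 38293 genes, by a rule that uses no measured value. All 9 were found there, and all 9 passed the filter on low counts in each of the 3 comparisons below.

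In mammals DNA methylation lies mainly on the cytosine of CpG dinucleotides. DNMT3A and DNMT3B place it on unmethylated DNA together with the catalytically inactive DNMT3L, and DNMT1, brought to newly replicated DNA by UHRF1, copies it onto the daughter strand. TET enzymes oxidise methylcytosine stepwise, and TDG excises the most oxidised forms so that base excision repair can restore an unmodified cytosine. Mouse embryonic stem cells are a common model of these enzymes, because cells grown with MEK and GSK3 inhibitors are known for low global methylation and cells moved towards the epiblast for its gain.

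RNA-seq was performed on E14 cells, a mouse embryonic stem cell line of strain 129/Ola, in 3 culture states with 3 libraries each, which the labels call biological replicates. mESC-2i, which the labels call naive, were kept in serum-free N2B27 medium with 10 ng/mL of leukaemia inhibitory factor (LIF), 1 µM of the MEK inhibitor PD0325901 and 3 µM of the GSK3 inhibitor CHIR99021. mESC-ser were kept on gelatin in medium with 15% serum and 10 ng/mL of LIF. EpiLC (epiblast-like cells) were made from mESC-2i on fibronectin in N2B27 with 20 ng/mL of activin A, 12 ng/mL of bFGF and 1% of knockout serum replacement, for a time that is not given in the sources used here. No group carried a targeted allele. All libraries came from a single cell line, and p-values measure only the spread between these libraries.

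Libraries held 7187576 to 16829549 counts. The labelled states were checked against marker genes. The summed level of 5 naive markers, in counts relative to TMM-scaled library size (CPM), was 2825 to 2904 in mESC-2i, 1496 to 1568 in mESC-ser and 88.3 to 102 in EpiLC. That of 3 formative markers was 14.8 to 16.2, 98.8 to 109.6 and 510 to 537. The 2 markers of shared pluripotency, Pou5f1 and Sox2, behaved differently. Sox2 was low in EpiLC, at 58.0 to 69.1 CPM, whereas every mESC library held 456.9 CPM or more. Pou5f1 in EpiLC, at 976 to 1026 CPM, lay within the range of the mESC libraries (682 to 1088 CPM). Primitive endoderm and trophectoderm markers, 3 of each, summed to 18.6 CPM or less in every library. The 2 markers of two-cell-like cells, Zscan4c and Zscan4d, summed to 42.6 to 66.7 CPM in mESC-ser. They summed to 0.471 to 0.505 CPM in mESC-2i and 5.68 to 7.86 CPM in EpiLC. The sum of 4 fibroblast markers ran from 31.1 to 75.7 CPM over all libraries, highest in mESC-ser, but single markers went opposite ways. Col1a1 was at 43.0 to 58.5 CPM in mESC-ser and 0.666 to 2.51 CPM in EpiLC. Thy1 was at 3.83 to 5.01 CPM in mESC-ser and 27.4 to 31.7 CPM in EpiLC. The part of these markers in the results below was not tested. In these bulk samples fewer cells that use a gene and less RNA of it per cell cannot be told apart.

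The de novo methyltransferase genes were low in mESC-2i and high in both other states, whereas Tet1 and Tet2 were highest in mESC-ser and lowest in EpiLC. Tet3 was highest in mESC-ser as counted but in EpiLC with offsets for gene length and GC content, described below. From mESC-2i to mESC-ser, Dnmt3a rose 14.5-fold, Dnmt3l 12.9-fold, Dnmt3b 8.45-fold, Tet1 7.45-fold and Tet2 3.84-fold. From mESC-2i to EpiLC, Dnmt3a rose 43.3-fold and Dnmt3b 18.1-fold while Tet2 was 36.7-fold lower. Between the 2 states with high de novo genes, EpiLC held 136-fold less Tet2 and 22.0-fold less Tet1 than mESC-ser. These folds are as counted. With the offsets the last 2 were smaller, at log2 differences of -5.60 for Tet2 and -2.99 for Tet1 in place of -7.09 and -4.46. Dnmt1 and Uhrf1, the maintenance pair, moved by less than 3-fold in every comparison.

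**Figure D1:**
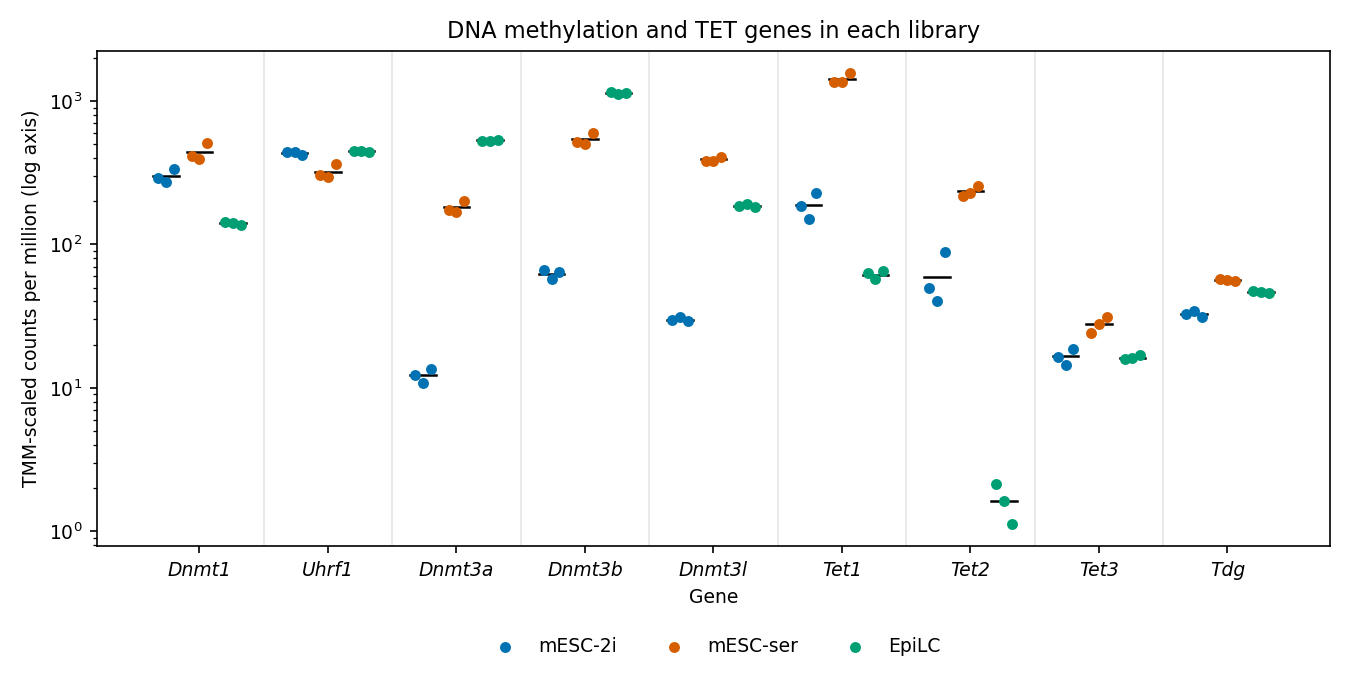
Level of each of the 9 genes in every library, in CPM on a log axis. Points are libraries, coloured by culture state, and black bars are means of 3 libraries. Tet2 in EpiLC lies between 1.13 and 2.13 CPM, far below its 2 other groups, and Dnmt3a in mESC-2i between 10.8 and 13.5 CPM.

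A gene was called where edgeR gave a Benjamini-Hochberg adjusted p under 0.05, over all genes tested, and a log2 fold change beyond 0.5 in either direction. Between mESC-ser and mESC-2i, 8 of the 9 genes were called, all of them higher in mESC-ser, and 56.2% of the 15728 genes tested were called (25.9% higher and 30.3% lower). The groups did not overlap in CPM for 9 of 9, as for 70.6% of the genes tested. Between EpiLC and mESC-2i, 7 were called, 4 higher and 3 lower in EpiLC, against 69.8% of 15378 genes (32% higher and 37.8% lower). The groups did not overlap for 7 of 9, as for 81.8% of genes. Between EpiLC and mESC-ser, 8 were called, 3 higher and 5 lower in EpiLC, against 73.3% of 15345 genes (35.5% higher and 37.8% lower), and the groups did not overlap for 9 of 9, as for 85.7% of genes. With so many genes called, the counts alone set the 9 genes apart little, and the sizes and directions of their changes are given gene by gene. The 3 comparisons are not independent, since each pair of them shares the libraries of a group. Median log2 fold changes of the 9 genes were 1.94, 0.04 and -0.70 in the 3 comparisons, against -0.04, -0.11 and -0.07 over all genes tested. With the offsets for gene length and GC content described below, the medians of the 9 genes were 1.21, 0.80 and 0.13. Those over all genes tested were then -0.03, -0.02 and -0.03.

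Fold changes followed gene length in these libraries, and 4 of the 9 genes are among the longest. In the longest eighth of the tested protein-coding genes, by summed exon length, the median log2 fold change was 0.51 for mESC-ser over mESC-2i, -0.73 for EpiLC over mESC-2i and -1.21 for EpiLC over mESC-ser, and 3 values given together below keep this order. In the shortest eighth it was -0.46, 0.89 and 1.41. Across protein-coding genes the Spearman correlation of fold change with length was 0.280, -0.300 and -0.498, a description over genes, which are not independent. Dnmt3a (16642 bp of exons), Tet1 (15457 bp), Tet2 (16870 bp) and Tet3 (16695 bp) lie in the longest eighth and Dnmt1 (7377 bp) in the seventh. Uhrf1 (4259 bp), Dnmt3b (5106 bp), Tdg (5374 bp) and Dnmt3l (2988 bp) lie in the middle. The counts were therefore also fitted with offsets for exon length and GC content, estimated per library, after which the median of the longest eighth was within 0.1 of 0 on the log2 scale (-0.09, -0.04 and -0.01) and the correlations with length were 0.0278, -0.0413 and -0.0693. In the shortest eighth, which holds none of the 9 genes but the partner genes Dppa3, Gadd45a, Gadd45b, Gadd45g, Neil1 and Apex1, the medians were still -0.18, 0.25 and 0.46 with the offsets. With these offsets 6, 8 and 7 of the 9 genes were called, against 52.8%, 64.5% and 64.6% of the genes tested. The source of the trend was not tested.

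**Figure D2:**
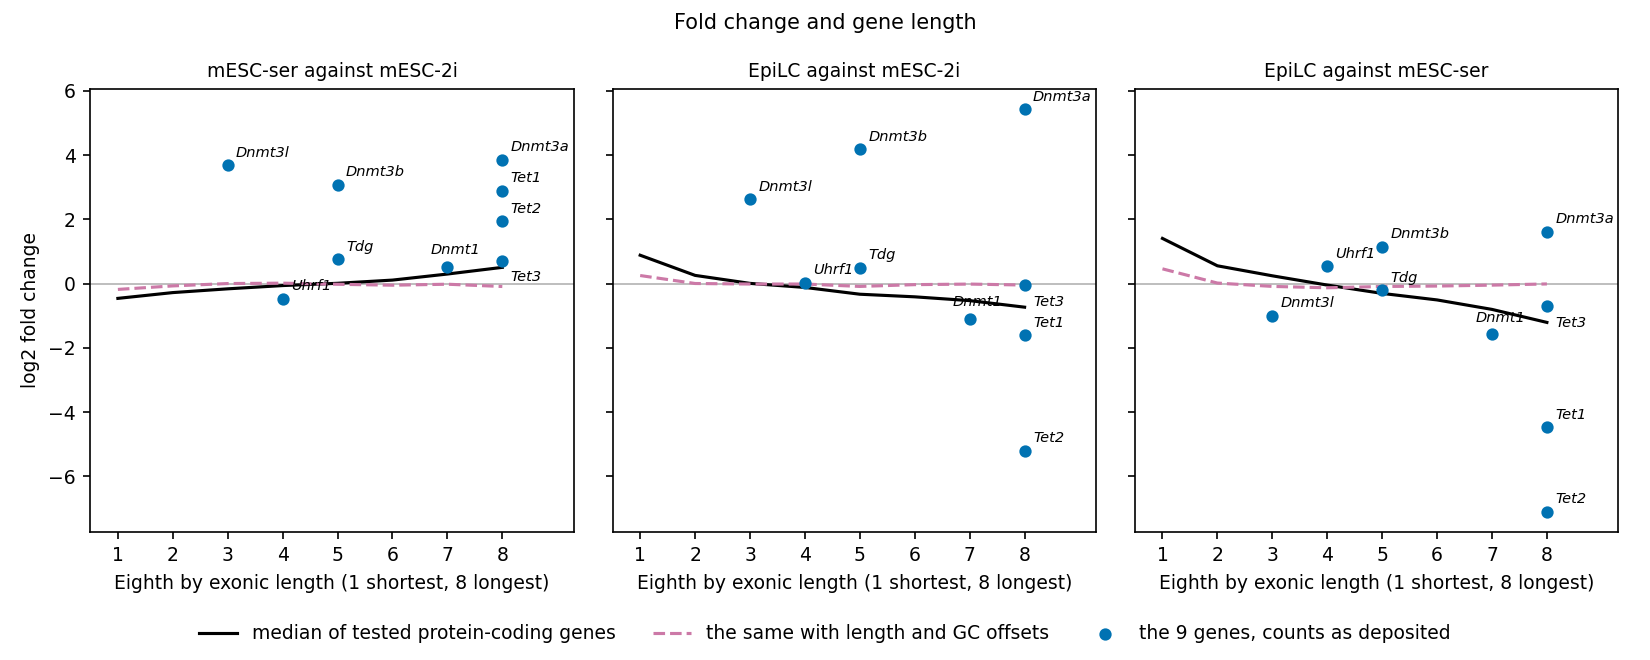
Log2 fold change (vertical axis) against the eighth of exon length (horizontal axis, 1 shortest to 8 longest) in the 3 comparisons. Lines are medians of tested protein-coding genes, solid for the counts as deposited and dashed with length and GC offsets, and points are the 9 genes. In EpiLC against mESC-ser the solid line falls from 1.41 to -1.21, Tet1 and Tet2 lie far below it, Tet3 lies above it and Dnmt3a lies above 0.

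Dnmt1 (ENSMUSG00000004099; chromosome 9, 20907209 to 20959888, minus strand, GRCm38, the assembly of mm10) encodes the enzyme that copies methylation after replication. Its level was 288, 273 and 336 CPM in the mESC-2i libraries, 412, 394 and 507 CPM in mESC-ser, and 144, 141 and 136 CPM in EpiLC. The 3 groups did not overlap, and EpiLC held the lowest level in each of its libraries. Dnmt1 was lower in EpiLC, with a log2 difference of -1.09 from mESC-2i (SE 0.10, edgeR adjusted p = 3.38e-06) and of -1.57 from mESC-ser (SE 0.09, edgeR adjusted p = 9.31e-11). With length and GC offsets these differences were smaller, at -0.60 and -1.08, and still called. The rise in mESC-ser over mESC-2i (log2 fold change 0.52, SE 0.13, edgeR adjusted p = 0.00383) lay at the fold threshold, and it was no longer called with the offsets (0.42), without replicate 3 of mESC-ser (0.43), or without replicate 1 (0.50) or 2 (0.45) of mESC-2i.

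Uhrf1 (ENSMUSG00000001228; chromosome 17, 56303321 to 56323486, plus strand) encodes the protein that reads hemimethylated CpG and brings DNMT1 to it. It was at 442, 439.9 and 422 CPM in the mESC-2i libraries, 306, 296 and 362 CPM in mESC-ser, and 451, 449 and 439 CPM in EpiLC. Levels in mESC-2i and EpiLC overlapped, with a log2 difference of 0.04 (SE 0.09, edgeR adjusted p = 0.709), and mESC-ser lay below both. The difference of mESC-ser from mESC-2i (-0.46, SE 0.10, edgeR adjusted p = 0.0026) passed the threshold on p and not that on the fold. EpiLC was higher than mESC-ser by 0.54 (SE 0.08, edgeR adjusted p = 1.25e-05), a call that ended with the offsets (0.41) and without replicate 2 of mESC-ser (0.49). Of the 50-base windows of Uhrf1 transcripts 15.4% also occur in another annotated gene, mostly the pseudogene Gm5648, which held 266 to 480 counts in mESC-2i, 288 to 516 in mESC-ser and 40 to 48 in EpiLC. With its reads added to Uhrf1 the log2 fold changes of EpiLC were -0.06 against mESC-2i and 0.45, below the threshold, against mESC-ser.

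The promoters of this pair are shown because both hold the same rare motif. Sequences of all promoters are from RefSeq (GRCm38.p6), on the strand of the gene from 250 bases before to 50 after an annotated start, with every CpG in capitals. RefSeq gave 16 such windows for the 9 genes, and of this pair the start with the most CpG is printed.
Dnmt1 promoter, chr9:20952574-20952873, minus strand: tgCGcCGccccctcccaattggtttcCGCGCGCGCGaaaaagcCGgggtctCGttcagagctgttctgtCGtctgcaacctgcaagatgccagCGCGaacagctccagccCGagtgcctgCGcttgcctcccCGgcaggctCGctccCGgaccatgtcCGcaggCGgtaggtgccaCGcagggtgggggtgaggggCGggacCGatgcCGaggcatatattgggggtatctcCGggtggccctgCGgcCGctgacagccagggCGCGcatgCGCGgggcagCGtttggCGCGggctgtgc
Uhrf1 promoter, chr17:56304063-56304362, plus strand: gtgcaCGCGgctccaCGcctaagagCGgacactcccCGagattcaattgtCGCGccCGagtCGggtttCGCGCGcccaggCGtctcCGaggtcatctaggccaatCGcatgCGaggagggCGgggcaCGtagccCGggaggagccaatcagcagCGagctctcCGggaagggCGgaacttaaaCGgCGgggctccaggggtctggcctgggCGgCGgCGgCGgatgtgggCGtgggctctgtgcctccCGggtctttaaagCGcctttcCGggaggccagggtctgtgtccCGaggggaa
Each of these windows holds 33 CpG, more than 91.4% of the 32851 mouse promoters of the same length. TTTCGCGC, a form of the site of E2F factors, which act at the start of S phase, was found on either strand in both, and in 0.323% of all promoters. The related TTTGGCGC, in 0.514% of all promoters, was found in the Dnmt1 window and in no other window of the 9 genes. A match is a description of the letters only.

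Dnmt3a (ENSMUSG00000020661; chromosome 12, 3806007 to 3914443, plus strand) encodes a de novo methyltransferase. It was at 12.4, 10.8 and 13.5 CPM in the mESC-2i libraries, from 98 to 172 counts, at 175, 168 and 200.2 CPM in mESC-ser, and at 526, 529.7 and 537 CPM in EpiLC. The 3 groups were far apart, and the EpiLC libraries varied by 1.11% of their mean. Over mESC-2i it rose on the log2 scale by 3.86 in mESC-ser (SE 0.13, edgeR adjusted p = 1.43e-08) and by 5.44 in EpiLC (SE 0.12, edgeR adjusted p = 4.15e-10). Dnmt3a was also higher in EpiLC than in mESC-ser, by 1.62 (SE 0.08, edgeR adjusted p = 1.15e-11), although the genes of its length class were lower there at the median. With length and GC offsets the 3 values were 3.36, 6.30 and 2.87, so the gap between EpiLC and mESC-ser was wider. Only 2.05% of the genes tested changed more than Dnmt3a between EpiLC and mESC-2i. An antisense gene, Dnmt3aos, overlaps 133 bp of its exons and held at most 1 count in any library.

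Dnmt3b (ENSMUSG00000027478; chromosome 2, 153649450 to 153687730, plus strand) encodes the other de novo enzyme. It was at 66.6, 57.0 and 64.4 CPM in the mESC-2i libraries, 516, 499 and 603 CPM in mESC-ser, and 1159, 1121 and 1133 CPM in EpiLC. The groups took the same order as for Dnmt3a, without overlap. The log2 fold change was 3.08 in mESC-ser (SE 0.12, edgeR adjusted p = 2.93e-08) and 4.18 in EpiLC (SE 0.11, edgeR adjusted p = 7.73e-10), both against mESC-2i. EpiLC exceeded mESC-ser by 1.15 (SE 0.08, edgeR adjusted p = 1.18e-09), and length and GC offsets moved the 3 values little, to 3.20, 4.49 and 1.23. Its close relative Dnmt3c, known for methylating young retrotransposons in the male germ line, shares 514 windows of 50 bases with it, 9.81% of those of Dnmt3b. Dnmt3c held 16 to 44 counts in mESC-2i, 260 to 403 in mESC-ser and 23 to 45 in EpiLC, and adding its reads gave 3.08, 4.13 and 1.09 for the sum.

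Dnmt3l (ENSMUSG00000000730; chromosome 10, 78041947 to 78063622, plus strand) encodes the cofactor without catalytic activity. Its level was 29.7, 31.1 and 29.0 CPM in the mESC-2i libraries, 384, 384 and 407 CPM in mESC-ser, and 185, 191 and 184 CPM in EpiLC. It thus departed from the order of the enzymes it assists, with its highest level in mESC-ser. It rose by 3.68 in mESC-ser (SE 0.10, edgeR adjusted p = 7.2e-09) and by 2.64 in EpiLC (SE 0.09, edgeR adjusted p = 3.15e-09) on the log2 scale against mESC-2i, and it was 2.00-fold lower in EpiLC than in mESC-ser (SE 0.08 on the log2 scale, edgeR adjusted p = 1.98e-09). With the offsets the values were 4.01, 2.62 and -1.46. Aire, on the opposite strand, overlaps 67 bp of its exons, and its counts were 121, 160 and 845 in the mESC-2i libraries, 563, 530 and 888 in those of mESC-ser, and 140, 176 and 167 in those of EpiLC. The mESC-2i library with 845 Aire counts had no higher Dnmt3l level than the other two.

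Promoters of the de novo genes are shown because the genes shared low levels in mESC-2i and differed in CpG content. For Dnmt3a the start inside the gene is given, which is known for the shorter enzyme form common in embryonic stem cells. Counts per gene do not separate it from the upstream starts.
Dnmt3a promoter, chr12:3891494-3891793, plus strand: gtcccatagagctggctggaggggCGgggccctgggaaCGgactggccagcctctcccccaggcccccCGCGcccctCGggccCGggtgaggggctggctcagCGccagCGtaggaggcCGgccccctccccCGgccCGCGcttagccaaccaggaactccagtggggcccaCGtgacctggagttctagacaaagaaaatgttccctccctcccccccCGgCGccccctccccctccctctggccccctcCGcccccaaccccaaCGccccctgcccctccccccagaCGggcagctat
Dnmt3b promoter, chr2:153649199-153649498, plus strand: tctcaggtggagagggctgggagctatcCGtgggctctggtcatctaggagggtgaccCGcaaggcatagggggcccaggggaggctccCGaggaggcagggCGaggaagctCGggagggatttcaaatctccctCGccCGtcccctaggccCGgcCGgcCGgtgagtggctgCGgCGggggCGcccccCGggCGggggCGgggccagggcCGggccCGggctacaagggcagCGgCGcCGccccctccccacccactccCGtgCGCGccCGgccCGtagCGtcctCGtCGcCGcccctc
Dnmt3l promoter, chr10:78042037-78042336, plus strand: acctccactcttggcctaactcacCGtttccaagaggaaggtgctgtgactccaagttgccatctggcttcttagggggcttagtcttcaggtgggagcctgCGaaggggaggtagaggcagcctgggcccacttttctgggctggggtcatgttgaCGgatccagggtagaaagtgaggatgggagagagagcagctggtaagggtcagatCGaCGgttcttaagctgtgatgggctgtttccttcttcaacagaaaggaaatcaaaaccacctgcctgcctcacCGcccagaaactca
The internal Dnmt3a window holds 18 CpG, against 46 and 47 in the windows of its upstream starts. The Dnmt3b window holds 30, and the Dnmt3l window 6, with 4 and 3 at its other annotated starts. The median over all promoters was 7 CpG. GGGCGG, the GC box bound by SP factors, was found in all 3 printed windows and in 35.7% of all promoters, and CACGTG, the E-box of MYC and related factors, in the internal Dnmt3a window, in none of the other 2 and in 7.15% of all promoters. The Dnmt3l window with 4 CpG, not printed, holds 1 match to CACGTG and 2 to GGGCGG.

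Tet1 (ENSMUSG00000047146; chromosome 10, 62804570 to 62908996, minus strand) encodes the TET enzyme best known from embryonic stem cells. It was at 184, 151 and 228 CPM in the mESC-2i libraries, 1353, 1360.4 and 1560.3 CPM in mESC-ser, and 62.9, 57.0 and 64.8 CPM in EpiLC. No groups overlapped, and mESC-ser stood 22.0-fold above EpiLC. Over mESC-2i the log2 difference was 2.90 for mESC-ser (SE 0.16, edgeR adjusted p = 1.91e-07) and -1.61 for EpiLC (SE 0.14, edgeR adjusted p = 2.39e-06), and EpiLC differed from mESC-ser by -4.46 (SE 0.10, edgeR adjusted p = 5.1e-15). Each has the direction of the length trend, and with length and GC offsets each was smaller, at 2.13, -0.83 and -2.99, and still called.

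Tet2 (ENSMUSG00000040943; chromosome 3, 133463679 to 133545139, minus strand) fell furthest of the 9 genes. It was at 50.0, 40.1 and 89.1 CPM in the mESC-2i libraries, 218, 228 and 257 CPM in mESC-ser, and 2.13, 1.64 and 1.13 CPM in EpiLC, where the libraries held 16, 15 and 9 counts. Replicate 3 of mESC-2i lay above the other two, as it also did for Dnmt1 and Tet1, and the groups still did not overlap. The rise in mESC-ser was 1.94 (SE 0.24, edgeR adjusted p = 5.86e-05), and 2.37 without that replicate. The fall in EpiLC was -5.20 against mESC-2i (SE 0.37, edgeR adjusted p = 4.74e-07) and -7.09 against mESC-ser (SE 0.15, edgeR adjusted p = 4.73e-15), and 0.280% of the genes tested in the latter changed more. With the offsets the 3 values were 1.21, -4.34 and -5.60.

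Tet3 (ENSMUSG00000034832; chromosome 6, 83362373 to 83459084, minus strand), the TET gene known from the oocyte and zygote, was low in every state, at 16.4, 14.5 and 18.8 CPM in the mESC-2i libraries, 24.2, 28.0 and 31.0 CPM in mESC-ser, and 15.9, 16.1 and 16.8 CPM in EpiLC. Libraries of mESC-2i and EpiLC overlapped (log2 fold change -0.03, SE 0.14, edgeR adjusted p = 0.838), and mESC-ser was above both. As counted, it was 0.72 higher in mESC-ser than in mESC-2i on the log2 scale (SE 0.14, edgeR adjusted p = 0.00116) and lower in EpiLC than in mESC-ser by -0.70 (SE 0.11, edgeR adjusted p = 2.14e-05). The length correction turned this order round. With length and GC offsets mESC-ser no longer differed by the call rule from mESC-2i (0.22, SE 0.10, edgeR adjusted p = 0.0787), and EpiLC was called higher than both mESC-2i (0.80, SE 0.11, edgeR adjusted p = 4.44e-05) and mESC-ser (0.51, SE 0.10, edgeR adjusted p = 0.00016). The direction of change of Tet3 in EpiLC thus depends on the scale chosen.

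The promoters of the Tet genes that fell in EpiLC are shown as a contrast in CpG content. The Tet1 window lies inside the annotated gene, whose upstream end is at 62908996, and RefSeq gave no window at that end. Counts per gene do not separate starts of Tet1.
Tet1 promoter, chr10:62887275-62887574, minus strand: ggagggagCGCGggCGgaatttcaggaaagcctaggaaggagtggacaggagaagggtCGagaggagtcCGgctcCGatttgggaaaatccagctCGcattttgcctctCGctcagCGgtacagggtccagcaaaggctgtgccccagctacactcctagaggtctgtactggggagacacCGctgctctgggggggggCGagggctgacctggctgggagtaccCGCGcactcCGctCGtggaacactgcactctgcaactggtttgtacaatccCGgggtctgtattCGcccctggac
Tet2 promoter, chr3:133544341-133544640, minus strand: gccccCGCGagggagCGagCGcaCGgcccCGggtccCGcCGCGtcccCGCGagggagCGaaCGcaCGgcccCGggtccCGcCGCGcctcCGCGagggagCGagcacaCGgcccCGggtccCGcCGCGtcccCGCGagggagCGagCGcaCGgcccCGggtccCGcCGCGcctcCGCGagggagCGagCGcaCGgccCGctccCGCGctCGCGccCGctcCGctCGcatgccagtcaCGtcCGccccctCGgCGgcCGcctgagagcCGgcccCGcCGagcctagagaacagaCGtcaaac
The Tet2 window holds 57 CpG, the most of the 9 genes and more than 99.8% of all promoters, in a run of near repeats, and the Tet1 window holds 17, more than 68.6%. Each of them holds GGGCGG, and neither holds the E-box or either E2F form.

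Tdg (ENSMUSG00000034674; chromosome 10, 82629828 to 82650799, plus strand) encodes the glycosylase that removes oxidised methylcytosine. It was at 32.9, 34.2 and 31.3 CPM in the mESC-2i libraries, 57.0, 56.7 and 55.7 CPM in mESC-ser, and 47.2, 46.5 and 46.0 CPM in EpiLC. The 3 groups did not overlap, and replicates were close. It was higher than in mESC-2i by 0.76 in mESC-ser (SE 0.10, edgeR adjusted p = 7.41e-05) and by 0.50 in EpiLC (SE 0.09, edgeR adjusted p = 0.000525), the latter at the fold threshold and at 0.47 without replicate 3 of mESC-2i, while the difference of EpiLC from mESC-ser (-0.21, SE 0.08, edgeR adjusted p = 0.0255) was below it. With length and GC offsets the values were 0.68, 0.84 and 0.13. Its level is the least certain of the 9, since 41.2% of the 50-base windows of its transcripts recur in other genes, chiefly processed pseudogenes. Of these Tdg-ps held 181 to 299 counts in mESC-2i, 437 to 572 in mESC-ser and 390 to 458 in EpiLC, and Gm9855 held more counts than Tdg itself in every library, from 406 to 1247. With the reads of both added the log2 fold changes were 0.63, 0.67 and 0.09, so both rises over mESC-2i were still called.

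**Figure D3:**
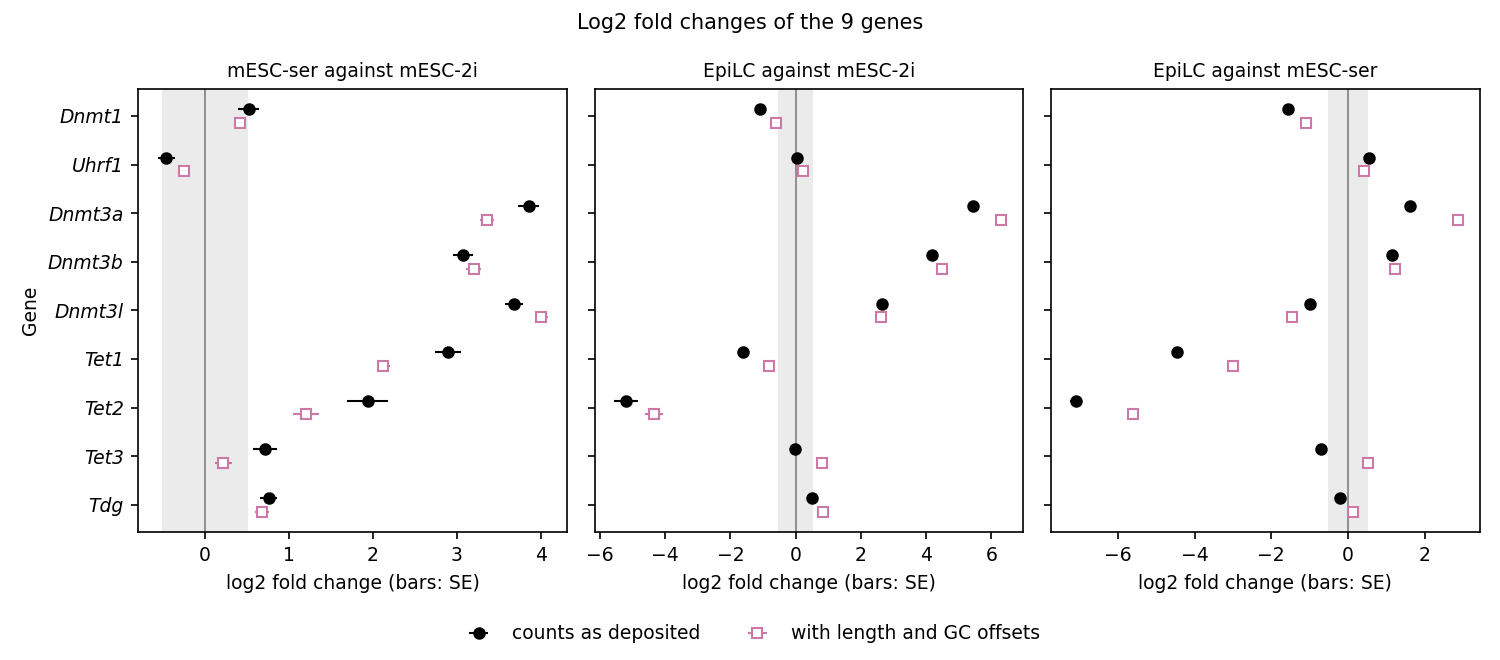
Log2 fold changes of the 9 genes in the 3 comparisons, with standard errors as bars. Filled circles are the counts as deposited, open squares the fit with length and GC offsets, and the grey band is the range within 0.5 of 0 where no gene was called. Tet3 crosses 0 between the fits in EpiLC against mESC-ser, from -0.70 to 0.51, while Dnmt3a, Dnmt3b, Dnmt3l, Tet1 and Tet2 stay on the same side in all 3 panels.

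To compare levels between genes, counts were divided by exon length (RPKM, on TMM-scaled libraries). In mESC-2i the maintenance genes led, with Uhrf1 at 102 ± 2.54 RPKM (SD, n = 3) and Dnmt1 at 40.5 ± 4.46. Dnmt3b (12.3 ± 0.99), Tet1 (12.1 ± 2.51) and Dnmt3l (10.0 ± 0.36) followed, and neighbours in this order overlapped. Tdg (6.11), Tet2 (3.54), Tet3 (0.99) and Dnmt3a (0.74) came last, each below the one before it in every library. In mESC-ser the order began with Dnmt3l at 131 ± 4.36 RPKM, Dnmt3b at 106 ± 10.9 and Tet1 at 92.2 ± 7.62, of which the last 2 overlapped, and went on with Uhrf1 (75.5), Dnmt1 (59.3), Tet2 (13.9), Dnmt3a (10.9), Tdg (10.5), which overlapped Dnmt3a, and Tet3 (1.66). In EpiLC Dnmt3b led at 223 ± 3.84 RPKM, before Uhrf1 (105), Dnmt3l (62.5), Dnmt3a (31.9), Dnmt1 (19.0), Tdg (8.66), Tet1 (3.98), Tet3 (0.97) and Tet2 (0.0968), with no overlap between neighbours. Dnmt3a thus moved from the last place in mESC-2i to the fourth in EpiLC, above Dnmt1, and Tet2 from the seventh to the last. Dividing by the longest transcript instead gave the same order in mESC-ser and EpiLC and put Dnmt3l before Dnmt3b and Tet1 in mESC-2i. Length and GC offsets kept the order of means in EpiLC but not in the mESC states. In mESC-ser they put Tet1 (54.1 RPKM) below Uhrf1 (79.0), and Tdg (9.46) above Tet2 (8.12) and Dnmt3a (7.06). In mESC-2i they put Tet1 (12.1) before Dnmt3b (11.3).

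**Figure D4:**
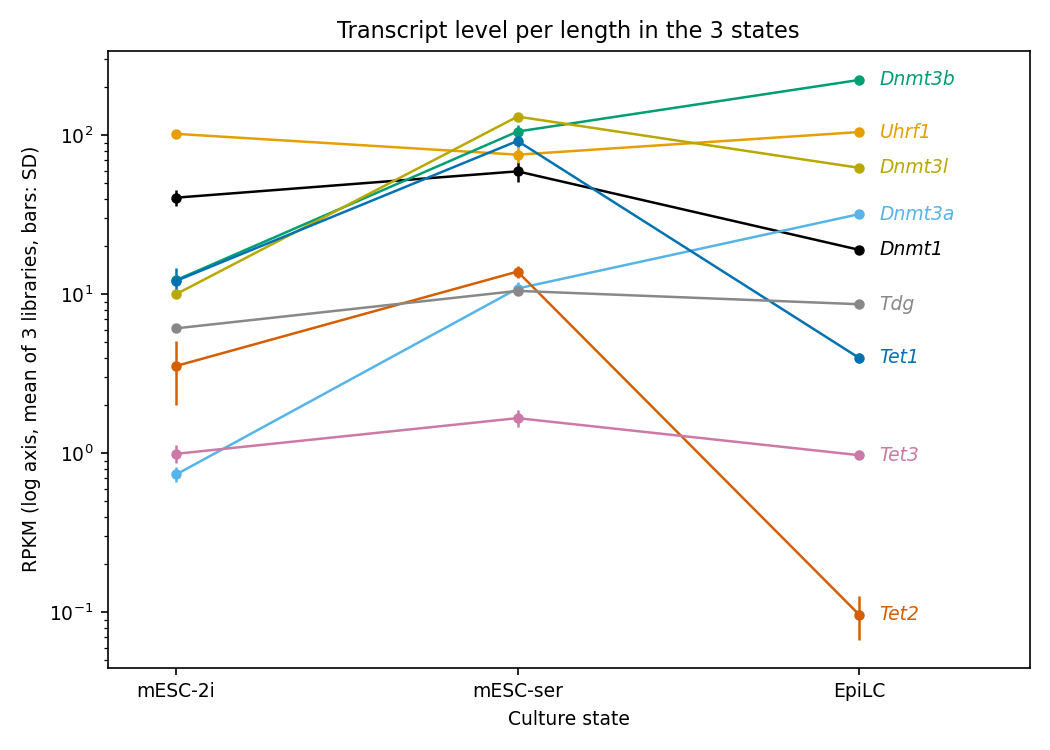
Mean level per exon length (RPKM, log axis) of the 9 genes in the 3 culture states, with SD over 3 libraries as bars and lines joining the means of a gene. Lines cross between states, with Tet1 and Tet2 falling and Dnmt3a and Dnmt3b rising from mESC-ser to EpiLC.

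Ratios of RPKM within a library do not depend on library scaling. The sum of the 3 Tet genes over the sum of Dnmt3a and Dnmt3b was 1.15, 1.10 and 1.58 in the mESC-2i libraries, 0.913, 0.958 and 0.908 in those of mESC-ser, and 0.0199, 0.0189 and 0.0207 in those of EpiLC. As counted, oxidation genes and de novo genes were thus at similar summed levels in both mESC states. In EpiLC the Tet genes were far below the de novo genes (log2 difference -5.99 from mESC-2i and -5.55 from mESC-ser). With length and GC offsets the mean ratios were 1.38, 0.572 and 0.0282, so the mESC states were less alike. The log2 difference of mESC-ser from mESC-2i was -0.44 as counted and -1.27 with the offsets. Each of the 15 exact two-sided permutation tests of a log2 ratio between 2 states gave p = 0.1, the smallest that 3 against 3 libraries allow, and an adjusted p of 0.1.

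Within the de novo genes, Dnmt3a over Dnmt3b was 0.0569, 0.0584 and 0.0643 in the mESC-2i libraries, 0.104, 0.103 and 0.102 in those of mESC-ser, and 0.139, 0.145 and 0.146 in those of EpiLC. Dnmt3b was the more abundant in every library, and Dnmt3a gained on it in that order of states. Offsets left 0.0618 and 0.0683 in the mESC states, a log2 difference of 0.15 in place of 0.78 (exact permutation p = 0.2), and 0.210 in EpiLC. The cofactor ratio Dnmt3l over Dnmt3a plus Dnmt3b was 0.720, 0.882 and 0.724 in the mESC-2i libraries, 1.15, 1.19 and 1.05 in those of mESC-ser, and 0.239, 0.255 and 0.242 in those of EpiLC. Dnmt3l exceeded the summed enzyme genes in the 3 mESC-ser libraries and was lowest against them in the 3 EpiLC libraries.

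In the maintenance pair, Uhrf1 over Dnmt1 was 2.66, 2.79 and 2.18 in the mESC-2i libraries, 1.29, 1.30 and 1.24 in those of mESC-ser, and 5.41, 5.51 and 5.60 in those of EpiLC. The highest ratio was thus in EpiLC, at a mean of 4.49 with the offsets, against 2.53 in mESC-2i and 1.57 in mESC-ser. Tet3 over Tet1 was 0.0825, 0.0891 and 0.0761 in the mESC-2i libraries, 0.0166, 0.0191 and 0.0184 in those of mESC-ser, and 0.233, 0.261 and 0.240 in those of EpiLC. Both are long genes, and the offsets left these means at 0.0779, 0.0201 and 0.233.

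**Figure D5:**
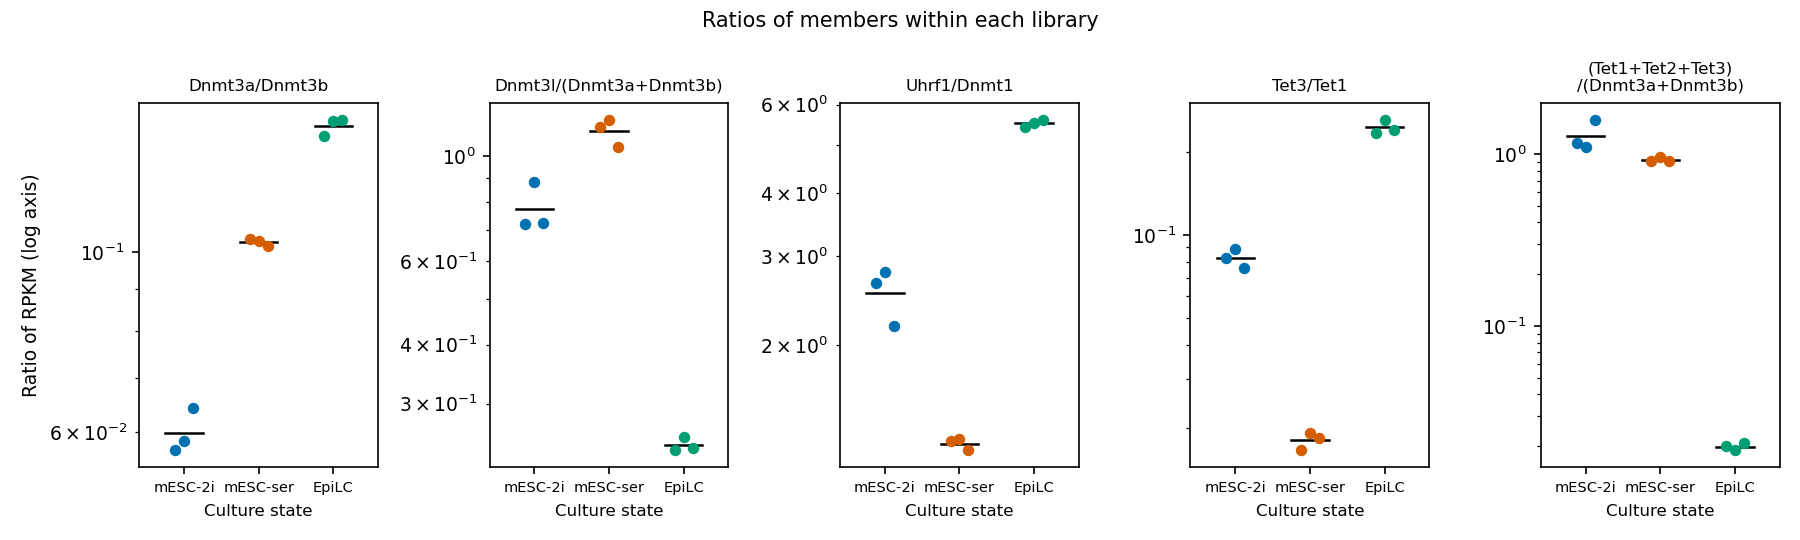
Ratios of RPKM between the genes within each library, on log axes, by culture state. Points are libraries and bars means of 3. No groups overlap in any panel, and the Tet to Dnmt3 ratio of EpiLC lies between 0.0189 and 0.0207, against 0.908 to 1.58 in the mESC states.

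Genes that act with the 9 were described by lists chosen from general knowledge of the pathway. Over all genes tested, 25.9% were called higher and 30.3% lower in mESC-ser against mESC-2i. The shares were 32% and 37.8% in EpiLC against mESC-2i, and 35.5% and 37.8% in EpiLC against mESC-ser. The lists are short, and counts near these shares do not set a list apart from other genes. In mESC-ser against mESC-2i, 3 of 7 maintenance partners were called higher and none lower (median log2 fold change 0.29). These were Hells (1.41), a chromatin remodeller, Dppa3 (1.28), known to keep UHRF1 from chromatin, and Usp7 (0.76), a deubiquitinase of DNMT1, which the offsets left at 0.36 and uncalled. Of 7 partners and regulators of de novo methylation 4 were higher, namely Dnmt3c (3.12), the histone methyltransferase genes Nsd1 (1.61) and Setd2 (1.23), and Trim28 (1.00), and 1 was lower, Prdm14 (-2.10), a repressor of the Dnmt3 genes in naive cells. Of the TET partners 7 were tested (Cxxc4 was too low), and of these Gadd45a was higher (2.32) and Idh1 (-1.94), Idh2 (-1.67) and Cxxc5 (-0.73, but -0.43 and uncalled with the offsets) were lower, the Idh genes encoding enzymes that make alpha-ketoglutarate, a cosubstrate of TET enzymes.

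In EpiLC against mESC-2i, maintenance partners split into 2 higher, Pcna (0.81) and Hells (0.69), and 2 lower, Usp7 (-0.77) and Uhrf2 (-0.57), and the offsets left the latter 2 uncalled (-0.25 and 0.00). Of the de novo list 1 was higher, Trim28 (0.70), and 4 were lower, among them Zfp57 (-1.79), which guards imprinted methylation, Setd2 (-1.17, and -0.52 with the offsets) and Kdm1b (-0.87). The offsets added a higher call there for Nsd1, from -0.02 to 0.84, and among maintenance partners a lower one for Dppa3, from -0.46 to -1.25, and a higher one for Lig1, from 0.48 to 0.68. Prdm14 held 387 to 655 counts in mESC-2i, 123 to 252 in mESC-ser and 1 to 2 in EpiLC. Of the TET list Gadd45g (2.22) and Gadd45a (0.90) were higher. Ogt (-2.30), the partner glycosyltransferase of TET proteins, Gadd45b (-1.65), Idh2 (-1.47) and Idh1 (-1.44) were lower. Replicate 3 of mESC-2i lay above its other replicates for Ogt (182, 149 and 406 CPM) and Zfp57 (262, 225 and 430 CPM). In EpiLC against mESC-ser, 4 of 7 maintenance partners were lower, led by Dppa3 (-1.69) and Usp7 (-1.47), with Pcna higher (0.84). With the offsets Dppa3 (-2.65) and Usp7 (-0.64) were still lower, Hells went from -0.67 to 0.26 and Uhrf2 from -0.82 to 0.06, both uncalled, and the median of the list went from -0.67 to 0.10. In the same comparison 6 of the 7 de novo partners were lower and none higher, including Dnmt3c (-2.49), Setd2 (-2.36) and Nsd1 (-1.58, but -0.09 and uncalled with the offsets). The TET list had 3 higher, led by Gadd45g (2.12), and 3 lower, led by Ogt (-1.77). The offsets left 1 higher, Gadd45g at 0.97, with Cxxc5 (0.53 to 0.04) and Idh1 (0.54 to 0.34) uncalled, and the same 3 lower, Ogt at -0.86.

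Base excision repair, which acts after TDG, had 1 of 11 genes higher (Lig3, 1.16) and 3 lower (Neil2 -2.54, Smug1 -1.04, Xrcc1 -0.80) between mESC-ser and mESC-2i. In EpiLC it had 4 higher and 4 lower against mESC-2i, led by the endonuclease gene Apex1 (1.65) and by Smug1 (-1.92). Against mESC-ser it had 6 higher and 3 lower, led again by Apex1 (1.94) and Smug1 (-0.84, but -0.43 and uncalled with the offsets). Over all genes tested the shares higher and lower were 25.9% and 30.3%, 32% and 37.8%, and 35.5% and 37.8% in the 3 comparisons. Medians of the repair list were -0.24, 0.40 and 0.88, and -0.26, 0.58 and 1.06 with the offsets. Of 7 readers of methylated CpG, Zbtb38 was called lower in all 3 comparisons (-0.59, -3.49 and -2.87), as were Zbtb4 (-1.11, -2.86 and -1.71) and Mbd2 (-0.58, -1.23 and -0.60), and Mbd3, which does not itself bind methylated CpG, was called higher in all 3 (0.66, 1.86 and 1.25). With the offsets Mbd2 was not called in mESC-ser against mESC-2i (-0.33), nor Mbd3 in EpiLC against mESC-ser (0.38).

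The methyl donor cycle was measured by 4 genes. Mat2a (0.84), which makes S-adenosylmethionine, and Mtr (0.87, but 0.45 and uncalled with the offsets) were higher in mESC-ser than in mESC-2i. Ahcy was higher in EpiLC than in mESC-2i (0.58) and mESC-ser (0.70, but 0.23 and uncalled with the offsets), and Mtr was lower there (-1.14 and -1.96). Of 12 genes of DNA replication 3 were higher in mESC-ser than in mESC-2i and none lower, against 25.9% and 30.3% of all genes tested. In EpiLC against mESC-2i 7 were higher and none lower, against 32% and 37.8%, with Tyms (2.18) and Ccne1 (2.16) ahead. Between EpiLC and mESC-ser 2 were higher, Tyms (1.97) and Cdt1 (0.67, but 0.19 and uncalled with the offsets), and 2 lower, against 35.5% and 37.8%. The summed CPM of the list was 2268 to 2453 in mESC-2i, 2983 to 3074 in mESC-ser and 3105 to 3288 in EpiLC.

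For each gene the nearest patterns over the 9 libraries were sought among 9410 genes with a mean of at least 100 counts, by the root mean square difference of log2 CPM after centring each gene. Nearest to Dnmt3a were Ccno, Pcsk1n and Utf1 (differences 0.16 to 0.24), and nearest to Dnmt3b were Sptb, Bcl6b and Slc7a7 (0.15 to 0.20). Dnmt3l was nearest to Myc, Slc27a2 and Cgn (0.15 to 0.17). Tet1 was nearest to Srcap, Setd1b and Enah (0.16 to 0.21), which have 12068 to 21452 bp of exons and so lie in the longest eighth with it. Tet2 had no pattern as close, with Arid5b at 0.41, Ceacam1 at 0.45 and Atp7a at 0.48. Dnmt1 was nearest to Usp37 (0.07), Uhrf1 to Apba3 (0.06), Tet3 to Rcor2 (0.06) and Tdg to Hspa4 (0.05), small values that also reflect how little these genes varied. Pearson's r ran from 0.958 to 0.999 over all of these pairs, with libraries of 3 groups as points.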

How the data were processed

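RNA of 9 libraries was sequenced by the study as 50-base single-end reads after poly-A selection with an unstranded kit. The authors trimmed reads with Trim Galore 0.6.6, aligned them to mm10 with HISAT2 2.2.1 and deposited raw read counts per Ensembl gene from featureCounts (Subread 2.0.1), with no normalization. The annotation release, strand setting and handling of reads with several alignments are not given in the sources used here, so copies and overlapping genes are uncertain. Depth was 7187576 to 16829549 counts per library, and reads carried no molecular identifiers.

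Symbols, positions and exon lengths were taken from GENCODE M21 (GRCm38), which matched 36429 of 38293 identifiers. Fits used edgeR 4.0.16 in R 4.3.3 on the 6 libraries of a comparison, with filterByExpr, TMM and the quasi-likelihood F-test without a block, and p-values were adjusted (Benjamini-Hochberg) over all genes tested. SE were derived from the F statistic. Length and GC offsets were natural splines with 5 degrees of freedom per library, fitted on genes with a mean of at least 50 counts, and TMM was recomputed after them. The steps were tested on simulated data. Partner genes were named where they passed the call rule, up to 4 per list and comparison by size of change, and the 3 nearest patterns per gene were listed.

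The 9 genes and the lists follow general knowledge of the pathway, and they and the tests were chosen with earlier results of these data known. Same-numbered libraries of mESC-ser and mESC-2i tended to deviate together (r across genes 0.129 to 0.345 for same numbers, -0.278 to 0.146 for others), most clearly for number 3 (0.345). Replicate 1 of mESC-ser correlated no better with replicate 1 of mESC-2i (0.129) than with its replicate 2 (0.146). This partial pairing rests on the data and not on the labels. Printed values are from the fit without the block, and a fit with the replicate number as a block was an alternative. No replicate pair agreed within sampling noise (chi-square per degree of freedom 1.61 to 28.3). The study's chromatin data were not analysed here.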

Additional observations from a re-analysis of the deposited data

How the results depend on the processing

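Of the planned recomputations of the values above 444 kept direction and side of the threshold (22 lost and 3 gained a call, 15 turned), and Dnmt3a, Dnmt3b, Dnmt3l, Tet1 and Tet2 kept their calls and directions in all 3 comparisons under every alternative that tested them, except that Dnmt3l in EpiLC against mESC-ser was not called at a log2 fold threshold of 1. At least 10 counts in every library left Tet2 untested in both EpiLC comparisons. At the log2 fold threshold of 1, 4935 genes and 5 of the 9 were called between mESC-ser and mESC-2i, and 7957 genes and 5 of the 9 between EpiLC and mESC-ser. Values near 0 or at the threshold moved. Tet3 turned with length alone as offset (-0.024 for mESC-ser over mESC-2i, 0.78 for EpiLC over mESC-2i and 0.74 over mESC-ser), with length and GC offsets (0.80 and 0.51 in the EpiLC comparisons, and 0.80 and 0.51 with these offsets and the replicate block), and in EpiLC against mESC-2i with RLE scaling (0.039), DESeq2 1.42.0 (0.039) and without mESC-2i replicate 3 (0.086, against -0.076 without mESC-2i replicate 2, the extremes of leaving out each library). Uhrf1 in EpiLC against mESC-2i turned with total-count scaling (-0.30), with at least 10 counts (-0.023) and with copies added (-0.062). Tdg in EpiLC against mESC-ser turned with length and GC offsets (0.13, and 0.13 with the block), length alone (0.078) and copies added (0.090). Adding copies was chosen after seeing the data. The call of Dnmt1 in mESC-ser was also lost with upper-quartile (0.49) and total-count scaling (0.48). The call of Tdg in EpiLC over mESC-2i was lost under 4 settings with all libraries, lowest with total counts (0.16), and that of Uhrf1 in EpiLC over mESC-ser under 7, lowest with total counts (0.20).

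Length and GC offsets moved the log2 ratios. Dnmt3a over Dnmt3b became 0.15 for mESC-ser over mESC-2i, 1.77 for EpiLC over mESC-2i and 1.62 for EpiLC over mESC-ser. Dnmt3l over the enzymes became 0.79, -2.06 and -2.85, Uhrf1 over Dnmt1 -0.69, 0.83 and 1.52, and Tet over Dnmt3 sums -1.27, -5.61 and -4.34. Tet3 over Tet1 became -1.95 for mESC-ser over mESC-2i and 3.54 for EpiLC over mESC-ser. The cause was not tested.

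Leaving out each library in turn gave 7 to 8, 6 to 7 and 7 to 8 of the 9 genes called. The replicate block left 8, 7 and 8 called and changed no call of the 9 genes (8953, 10759 and 11207 genes in all). For EpiLC libraries r was small, though higher for same numbers than for others. With mESC-2i it was 0.0195 to 0.112 for same numbers and -0.114 to 0.0105 for others. With mESC-ser it was 0.0165 to 0.0335 for same numbers and -0.0308 to 0.0159 for others. Depth limits Tet2 in EpiLC, at 9 to 16 counts.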
